A study of Mus musculus with 8 samples.

Results

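The genes described here are 37 markers of the cells that surround muscle stem cells in hindlimb muscle, measured in 8 RNA-seq libraries of sorted muscle stem cells. They are a list of marker names, drawn up with earlier results of these data known, and comprise 11 endothelial, 9 mural, 10 immune, 3 glial and 4 stromal genes, out of 27554 genes counted. All 37 were in the table, and 34 had enough reads to be tested. Csf1r, Sox10 and Pdgfra did not.

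The mice were of strain C57BL/6NTac and carried the alleles Pax7tm3955(T2A-ZsGreen)Tac and Myf5tm3956(T2A-E2Crimson)Tac, so every group had both reporters, ZsGreen made from Pax7 and E2Crimson from Myf5. Pax7 and Myf5 are transcription factors of the muscle lineage, and Pax7 marks the muscle stem cell. The 4 groups were Female Myf5High, Female Myf5Low, Male Myf5High and Male Myf5Low, with 2 libraries in each, and each library came from a pool of 4 mice. The Myf5High and Myf5Low libraries of 1 sex that carry the same number are called a pool here, although the labels do not state that they share mice. Age was not given in the sources used here. The comparison of the fractions asked which genes differed between cells with high and low Myf5 expression, and the comparison of the sexes asked the same for females and males.

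A sorted fraction can hold RNA of neighbouring cells. In muscle, endothelial cells line the capillaries that run along the fibres, and mural cells (pericytes and smooth muscle cells) wrap the vessels. Resident macrophages and other leukocytes, Schwann cells of the nerves, and fibroblast-like stromal cells occupy the space between fibres. Some genes named for these cells are also used by muscle stem cells, among them Tek, the angiopoietin receptor Tie-2. In bulk RNA, fewer cells of a type and less RNA per cell cannot be told apart.

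Depth ran from 3140361 to 4238427 reads assigned to genes per library. A count of 0 allows up to 3 reads, which is 0.672 to 0.986 counts per 1000000 reads (CPM, scaled by edgeR's TMM factors) in these libraries, for counting error only. Pax7 was at 1001 to 1498 CPM in every library, and Myf5 differed between the fractions in the direction of the labels (log2 fold change 1.19, SE 0.265, adjusted p = 0.0284, edgeR quasi-likelihood test). Myf5 was 39.45 CPM in Male Myf5High replicate 2 against 41.9 CPM in Male Myf5Low replicate 1, so the fractions overlapped in males. The noncoding gene Gm42418 took 20.1% to 28.8% of the reads and mitochondrial genes 0.694% to 2.82%.

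Markers of the 5 classes were present at very unequal levels. Per kilobase of exon, the highest member of each class, as a mean over the 8 libraries, was Acta2 among mural genes (56.97 ± 43.7 CPM per kb, SD, n = 8), Egfl7 among endothelial genes (53.0 ± 24.2), Ly6a among stromal genes (25.03 ± 8.96), C1qa among immune genes (12.8 ± 8.89) and S100b among glial genes (10.04 ± 7.14). Pax7 stood at 219.6 ± 26.6 CPM per kb on the same scale. The order of Acta2 and Egfl7, and that of C1qa and S100b, was within their spread. So was that of C1qa and Lyz2 (11.6 ± 9.89 CPM per kb), the next immune gene. These means pool the fractions, and C1qa was at 5.10 ± 2.11 CPM in Myf5High against 21.5 ± 4.10 CPM in Myf5Low (SD, n = 4). A set of 10 markers had no read in at least 1 library, and they include genes that define their cell type. Ptprc, which encodes CD45 of all leukocytes, had no read in 3 libraries. Csf1r, the receptor that macrophages need, had none in 2, Sox10, a transcription factor of Schwann cells, had none in 2, and Pdgfra, the receptor that marks fibro-adipogenic progenitors, had none in 1. Cnn1, a calponin of contractile smooth muscle, had none in 3.

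**Figure D1:**
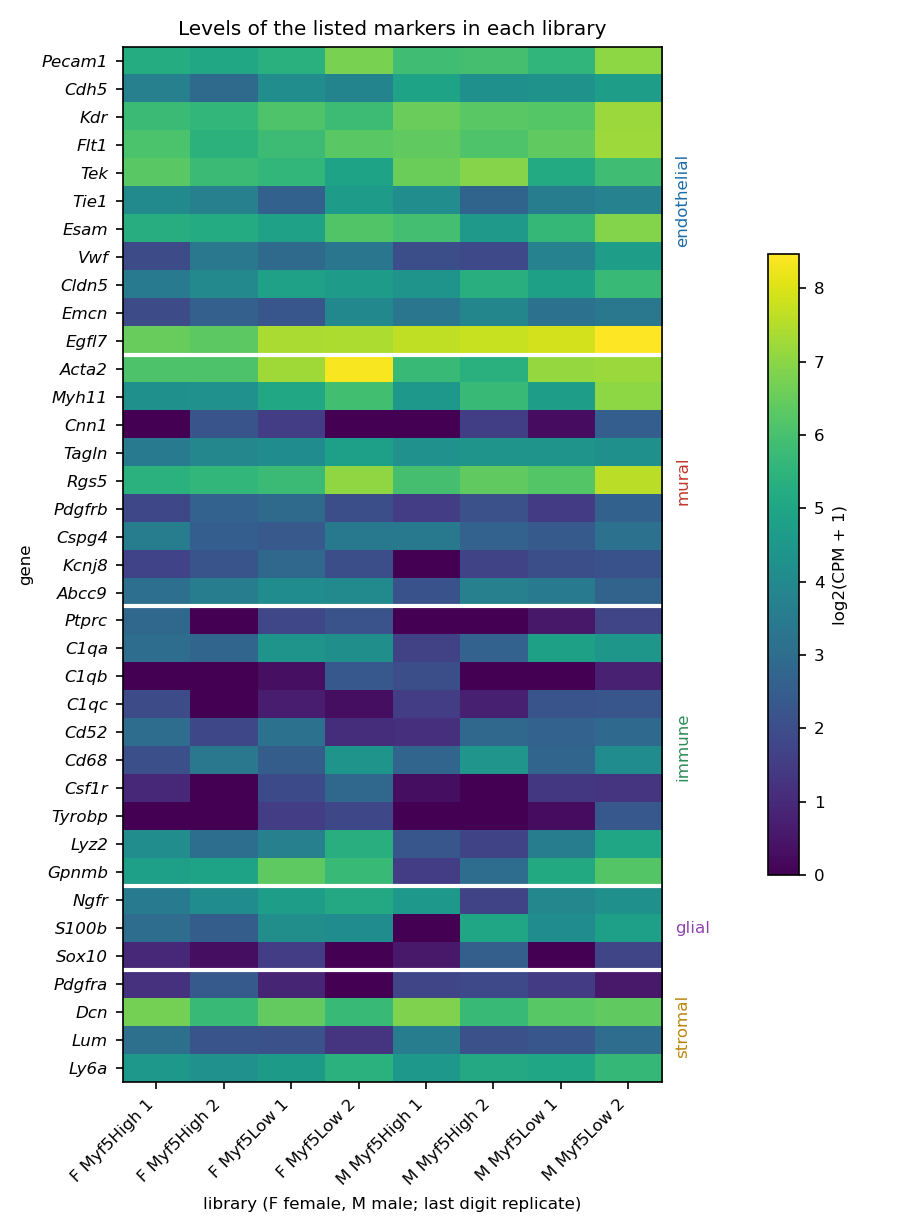
Level of each of the 37 markers (rows, grouped by cell class) in each of the 8 libraries (columns), as log2(CPM + 1), from 0 in dark to the highest level in yellow. Egfl7 and Acta2 are the brightest rows, and Ptprc, C1qb, Csf1r, Tyrobp, Cnn1, Sox10 and Pdgfra are dark in most libraries.

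Between the fractions, 3 of the 34 tested markers passed the test, and each was lower in Myf5High: Acta2 of the mural list, and C1qa and Gpnmb of the immune list. None was higher. Over all 11730 genes tested, 141 passed (1.2%), of which 51 were lower in Myf5High (0.435%) and 90 higher (0.767%). The estimate was below 0 for 29 of the 34 markers, with a median log2 fold change of -0.65, also with Tyrobp set at the bound described with its levels, against -0.02 over all genes tested. At an unadjusted p under 0.05, 11 markers were lower and 1, Tek, was higher, against 4.83% and 4.53% of all genes. DESeq2 called 6 markers and 234 of all genes (1.99%), adding Lyz2 and Egfl7 as lower and Tek as higher in Myf5High.

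The promoter sequences of Gpnmb and of Tek, whose estimate went the other way, are shown because Myf5, whose reporter was used to sort the cells, belongs to a family that binds the E-box, a short DNA word. Each is the stretch of 250 bases before the RefSeq gene start (GRCm38.p6), 5′ to 3′ on the gene's strand, with capitals marking every CANNTG. Neither shares a base with a GENCODE M21 exon. The Acta2 window is not shown because it lies partly on the exon that GENCODE places at the start of that gene.

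Gpnmb, chr6:49036268-49036517, plus strand: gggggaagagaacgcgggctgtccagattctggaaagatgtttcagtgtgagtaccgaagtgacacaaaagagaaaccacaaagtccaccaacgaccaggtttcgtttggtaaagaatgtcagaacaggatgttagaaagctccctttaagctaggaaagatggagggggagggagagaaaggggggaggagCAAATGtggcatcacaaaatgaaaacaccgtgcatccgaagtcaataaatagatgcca

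Tek, chr4:94739039-94739288, plus strand: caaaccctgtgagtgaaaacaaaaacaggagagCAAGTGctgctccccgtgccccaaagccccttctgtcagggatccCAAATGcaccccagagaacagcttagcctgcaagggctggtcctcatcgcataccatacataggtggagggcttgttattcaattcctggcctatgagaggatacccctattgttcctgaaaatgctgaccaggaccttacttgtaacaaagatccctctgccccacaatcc

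The Tek window held 2 matches and the Gpnmb window 1. The word CANNTG is its own reverse pattern, so both strands are read at once. It was present in 66.2% of the 32851 promoter windows of that length, with a mean of 1.16 matches, and CAGCTG, which is a special case of it, in 13%. Of the 37 markers 22 had a window, of which 18 held CANNTG and 5 held CAGCTG. These matches describe the letters in the windows and say nothing of binding.

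Acta2, smooth muscle actin of arteries and pericytes, was lower in Myf5High. The gene lies at chr19:34241090-34255590 on the minus strand (GRCm38, GENCODE M21) and shares no exon with another gene. Its levels in Female Myf5High replicates 1 and 2 were 67.3 and 68.5 CPM, and in Female Myf5Low 153.3 and 335 CPM. In Male Myf5High they were 52.4 and 40.1 CPM, and in Male Myf5Low 139.3 and 144.8 CPM. Every Myf5Low library was above every Myf5High library, and Female Myf5Low replicate 2 was far above the other Myf5Low libraries. The log2 fold change was -1.73 (SE 0.232, adjusted p = 0.000389, edgeR quasi-likelihood test), and it stayed past the threshold without each library in turn, from -1.96 to -1.40. Within females it was -1.85 (SE 0.327, adjusted p = 0.0135, edgeR), where 39 genes passed (0.332%), 16 of them lower (0.136%). That call was lost without Female Myf5High replicate 1 (adjusted p = 0.126, edgeR), without Female Myf5High replicate 2 (0.147) and without Female Myf5Low replicate 2 (0.348), where the estimate was -1.18. In males it was -1.62 (SE 0.328, adjusted p = 0.0552, edgeR), and with the pool number as a block -1.63 (adjusted p = 0.0461, edgeR), where 0.0597% of all genes were called lower. The interaction of sex and fraction for Acta2 was -0.23 (SE 0.454), with an adjusted p of 1 (edgeR).

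Among the other 8 mural genes edgeR and DESeq2 each called 0, and 2 were lower at an unadjusted p under 0.05 in edgeR. Myh11, the smooth muscle myosin heavy chain, had an estimate of -1.20 (SE 0.389, adjusted p = 0.215, edgeR), and Rgs5, a regulator of G protein signalling in pericytes, -0.97 (SE 0.30, adjusted p = 0.18, edgeR). Both were lower in Myf5High in each of the 4 pools, and both were highest in Male Myf5Low replicate 2, with ranges of 18.1 to 128.3 and 41.7 to 193.3 CPM. Without that library the Myh11 estimate was -0.42 (adjusted p = 0.856, edgeR) and that of Rgs5 -0.53 (adjusted p = 0.669, edgeR). Other fits called them lower. Without Male Myf5Low replicate 1 the estimates were -1.57 for Myh11 (adjusted p = 0.00763, edgeR) and -1.24 for Rgs5 (0.0204). Myh11 also passed without Male Myf5High replicate 2 (-1.56, adjusted p = 0.0382, edgeR), and Rgs5 without Female Myf5Low replicate 1 (-1.23, adjusted p = 0.041, edgeR). With no filter on low counts both passed (adjusted p = 0.000656 and 0.00136, edgeR). The other mural members were Tagln, a contractile protein, at 10.4 to 26.6 CPM, Abcc9 and Kcnj8, the subunits of a potassium channel of pericytes, at 3.36 to 16.5 and 0 to 6.04 CPM, Cspg4, the NG2 proteoglycan, at 4.12 to 11.0 CPM, and Pdgfrb, the receptor that pericytes need, at 1.79 to 6.59 CPM. Cnn1 was at 0 to 4.78 CPM. Tagln shares 1241 exon bases with an antisense gene, and the counting's strand setting was not given in the sources used here. It is 1 of 5 members that share at least 100 exon bases with a gene on the opposite strand. The others are Csf1r (873 bases), Pdgfra (456), Cd52 (172) and Abcc9 (158).

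Of 12 genes of myogenic commitment, 2 passed between the fractions, Myog and Mymk, both higher in Myf5Low, and 9 estimates were below 0. In males 8 of the 12 estimates were above 0. The summed level of the 12 was 872.9 CPM in Male Myf5High replicate 1, against 187.4 CPM in Male Myf5High replicate 2. In Male Myf5Low it was 345 and 641.3 CPM. Myog, the transcription factor of differentiating myoblasts, was at 0 to 1.27 CPM in Myf5High and 93.7 to 532.5 CPM in Myf5Low, highest in Female Myf5Low replicate 2, the library highest for Acta2. The contribution of muscle differentiation to the Acta2 difference was not tested. The summed level of the 9 mural genes ran from 160.7 to 219 CPM in Myf5High and from 276.7 to 585 CPM in Myf5Low. Without Acta2 the sums of the other 8 overlapped, at 93.5 to 178.9 CPM (Myf5High) and 137.3 to 366.7 CPM (Myf5Low), and the log2 ratio of the means was -0.84 instead of -1.20. Of the 12 further mural genes listed, 10 were tested and 1 passed: Mylk, the myosin light chain kinase, was lower in Myf5High (log2 fold change -1.22, SE 0.245, adjusted p = 0.0135, edgeR), a call lost without Male Myf5Low replicate 2 (-0.81, adjusted p = 0.0963, edgeR), Female Myf5High replicate 1 (-1.15, 0.0684) or Female Myf5Low replicate 2 (-1.09, 0.0828). At an unadjusted p under 0.05, 2 of the 10 were lower and 2 higher. Mcam, an adhesion molecule of pericytes and endothelium that was chosen after its values were seen, was higher in Myf5High without overlap of the fractions (log2 fold change 0.91, SE 0.234, adjusted p = 0.0709, edgeR). The further mural genes summed to 547.8 ± 43.96 CPM in Myf5High, against 639.9 ± 199 CPM (SD, n = 4).

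C1qa was lower in Myf5High, whereas C1qb and C1qc were above the floor of 3 reads in 2 and 4 of the 8 libraries. C1qa, C1qb and C1qc encode the chains of C1q, which starts the classical complement pathway and is made mainly by macrophages, and they lie next to each other within chr4:136880129-136898803 on the minus strand. The C1qa level was 7.12 and 5.86 CPM (Female Myf5High), 20.1 and 17.4 CPM (Female Myf5Low), 2.161 and 5.26 CPM (Male Myf5High), and 27.1 and 21.3 CPM (Male Myf5Low). No library of one fraction overlapped the other. The log2 fold change was -2.13 (SE 0.394, adjusted p = 0.00771, edgeR), from -2.50 to -1.86 with each library left out in turn, past the threshold each time. The neighbouring genes were lower as means over the libraries. C1qb had no read in 4 libraries and was at most 4.00 CPM, and C1qc ranged from 0 to 3.82 CPM. Per kilobase the means were 12.8 ± 8.89 for C1qa, 0.932 ± 1.48 for C1qb and 0.886 ± 0.807 CPM for C1qc (SD, n = 8). The highest C1qb level outside Female Myf5Low replicate 2 was 3.12 CPM, in Male Myf5High replicate 1, where C1qa was lowest and, at 2.161 CPM, below C1qb.

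**Figure D2:**
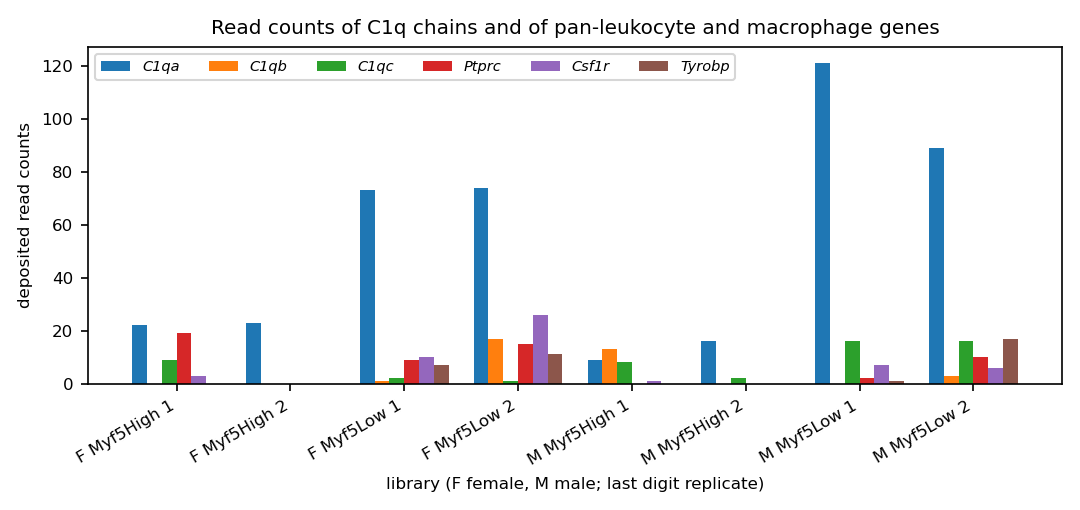
Deposited read counts (vertical axis) of 6 immune genes in each of the 8 libraries (F female, M male). C1qa has 73 to 121 reads in the Myf5Low libraries and 9 to 23 in the Myf5High libraries, while the other genes stay at or below 26 reads.

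Gpnmb, a glycoprotein of lysosome-rich cells such as macrophages, was lower in Myf5High in every pool. The gene lies at chr6:49036546-49070929 on the plus strand. Its levels were 26.5 and 29.0 CPM (Female Myf5High), 81.6 and 52.7 CPM (Female Myf5Low), 1.92 and 7.23 CPM (Male Myf5High), and 34.3 and 73.3 CPM (Male Myf5Low). The male Myf5High libraries were lowest, and the fractions did not overlap. The log2 fold change was -2.44 (SE 0.35, adjusted p = 0.000717, edgeR). In males it was -3.61 (SE 0.532, adjusted p = 0.00455, edgeR), where 20 genes passed (0.171%) and 0.0512% of all were called lower, and in females -1.27 (SE 0.453, adjusted p = 0.42, edgeR). The difference between those effects was 2.34 (SE 0.687), with an adjusted p of 0.917 (edgeR), so a difference between the sexes was not shown. The male estimate was -2.89 without Male Myf5High replicate 1 and -4.79 without Male Myf5High replicate 2, past the threshold each time. From the male libraries alone it was -3.59 and was not called (adjusted p = 0.103, edgeR). In edgeR 0 of 11730 genes passed the interaction test (0%), and 533 had an unadjusted p under 0.05. DESeq2 called 2 genes, neither of them a marker.

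Of the remaining immune genes, Lyz2, Cd68 and Cd52 were above the floor of 3 reads in all 8 libraries, and Tyrobp, Ptprc and Csf1r were not. Tyrobp, the signalling adaptor DAP12 of myeloid and natural killer cells, had no read in any Myf5High library and was at 1.92 and 2.59 CPM in the females and 0.224 and 4.06 CPM in the males of Myf5Low. Taking the floor of 3 reads in each Myf5High library, its mean was at least 2.56-fold lower there, and its adjusted p was 0.257 (edgeR). With Tyrobp at this bound, the median log2 fold change of the 9 tested immune genes was -1.90, and as fitted -1.99. Lyz2, the lysozyme of macrophages and neutrophils, was at 16.8 and 7.38 CPM (Female Myf5High), 11.8 and 39.0 (Female Myf5Low), 3.84 and 2.30 (Male Myf5High), and 11.0 and 30.3 CPM (Male Myf5Low). In female pool 1 the order was the reverse of the other 3 pools, and the log2 fold change was -1.90 (SE 0.469, adjusted p = 0.0587, edgeR). Lyz2 passed in 4 of 8 edgeR fits with 1 library left out, among them that without Male Myf5Low replicate 1 (-2.17, adjusted p = 0.0155, edgeR). It also passed with no filter (adjusted p = 0.000333, edgeR) and in DESeq2 (0.0155), and the estimate was -1.35 without Female Myf5Low replicate 2 (adjusted p = 0.434, edgeR). Ptprc was at 0 to 6.14 CPM, with its highest value in Female Myf5High replicate 1. Csf1r, which was not tested, was at 0.970 and 0 CPM (Female Myf5High) and 2.75 and 6.12 CPM (Female Myf5Low). In males it was at 0.240 and 0 CPM (Myf5High) and 1.57 and 1.43 CPM (Myf5Low). Its fractions did not overlap, and no Myf5High library held more than the floor of 3 reads. Cd68, a lysosomal protein of macrophages, was at 3.23 to 20.4 CPM and Cd52, a small glycoprotein of leukocytes, at 1.18 to 7.97 CPM, with estimates of -0.36 and -0.30.

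The summed level of the 10 immune genes was 46.8 ± 21.3 CPM over the Myf5High libraries, against 132.6 ± 30.7 CPM over those of Myf5Low (SD, n = 4), without overlap between the fractions. That separation rests on the called members. Without Gpnmb and C1qa, a choice made after seeing the data, the sums of the other 8 genes overlapped, at 16.1 to 37.2 CPM (Myf5High) and 28 to 76.7 CPM (Myf5Low), and the log2 ratio of the means was -0.99 instead of -1.50. The sums of the 21 further immune genes overlapped, at 90.4 ± 101.9 CPM over the Myf5High libraries against 88.1 ± 51.5 CPM for Myf5Low (SD, n = 4). Female Myf5High replicate 1 alone was at 241.9 CPM, of which S100a8 and S100a9, the calprotectin subunits of neutrophils, made up 105.8 and 67.6 CPM. Without these 2 genes the means were 45.8 ± 20.6 and 65.8 ± 27.6 CPM (SD, n = 4), a choice made after seeing the data. Of the 21 genes 11 were tested, with 5 estimates above 0 and 6 below. At an unadjusted p under 0.05, 2 were lower in Myf5High and 0 higher (edgeR), against 4.83% and 4.53% of all genes. Fractions did not overlap for 2 of the 11, Ctss and Mrc1, both lower in Myf5High, against 2.22% of all genes. Mrc1 was at 0 to 0.961 CPM in Myf5High, with at most 4 reads, and at 2.24 to 9.62 CPM in Myf5Low. Ctss, the lysosomal protease cathepsin S, was called lower in Myf5High (log2 fold change -3.96, SE 0.909, adjusted p = 0.036, edgeR), with 36.1 CPM in Male Myf5Low replicate 2. The call was lost without that library (estimate -2.80, adjusted p = 0.431, edgeR), without Female Myf5High replicate 2 (0.0715) and without Female Myf5Low replicate 2 (0.174), and DESeq2 gave an adjusted p of 0.301. The part that leukocyte RNA plays in the differences of C1qa and Gpnmb was not tested.

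**Figure D3:**
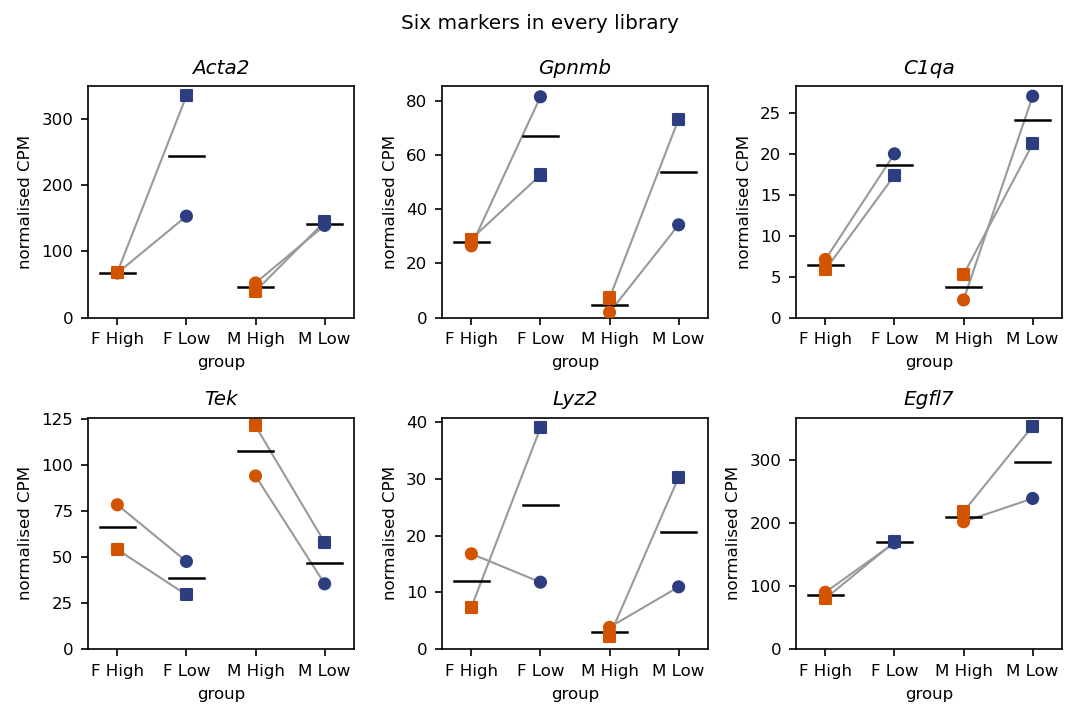
Levels of 6 markers in normalised CPM (vertical axis, from 0) in the 4 groups (horizontal axis; F female, M male; High and Low are the Myf5 fractions). Circles are replicate 1 and squares replicate 2, lines join libraries that carry the same pool number, and bars are means of 2 libraries. Acta2, Gpnmb and C1qa are higher in every Myf5Low library than in every Myf5High library, whereas Tek lies the other way in each pool.

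In the endothelial list 0 genes passed between the fractions in edgeR, and 10 of the 11 estimates were below 0 (median -0.44). At an unadjusted p under 0.05, 4 were lower and 1 higher in Myf5High, and DESeq2 called Egfl7 and Tek. With no filter on low counts edgeR called Egfl7 (adjusted p = 0.0133), Pecam1 (0.0248) and Tek (0.00308). Egfl7, a secreted protein of vessel walls, was at 89.9 and 79.9 CPM (Female Myf5High), 168.1 and 169.6 (Female Myf5Low), 201.5 and 217.6 (Male Myf5High) and 238.4 and 352.9 CPM (Male Myf5Low). Within each sex the fractions did not overlap, and the male Myf5High libraries were above the female Myf5Low libraries. The log2 fold change was -0.74 (SE 0.185, adjusted p = 0.0595, edgeR). It passed with a filter at a mean of 50 counts (adjusted p = 0.0379, edgeR), without Male Myf5High replicate 2 (0.0483) and without Male Myf5Low replicate 1 (0.036), and not in the other 6 fits with 1 library left out. Pecam1 (CD31, an adhesion protein), at 32.3 to 128.5 CPM, had an estimate of -0.84 (SE 0.312, adjusted p = 0.33, edgeR), which was -0.39 without Male Myf5Low replicate 2 and -0.40 without Female Myf5Low replicate 2. Vwf (von Willebrand factor of clotting), at 2.63 to 25.6 CPM, had -1.51 (SE 0.499, adjusted p = 0.228, edgeR), and Cldn5, a tight junction protein at 10.03 to 51.6 CPM, -0.76 (SE 0.31, adjusted p = 0.403, edgeR). For the VEGF receptors Kdr and Flt1 the estimates were -0.33 and -0.44, with Flt1 at 42.5 to 148.6 CPM, and for the adhesion molecule Cdh5 (VE-cadherin) -0.31. The others were Esam, an adhesion molecule of tight junctions, at 23.0 to 118.7 CPM, Emcn, a sialomucin, at 2.91 to 14.3 CPM, and Tie1, the orphan relative of Tek, at 5.22 to 24.2 CPM.

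Tek was the endothelial gene with an estimate above 0. The gene lies at chr4:94739289-94874976 on the plus strand. It stood at 78.3 and 54.0 CPM (Female Myf5High), 47.5 and 29.4 (Female Myf5Low), 93.9 and 121 (Male Myf5High) and 35.4 and 57.8 CPM (Male Myf5Low). It was higher in Myf5High in each of the 4 pools, although Female Myf5High replicate 2 was below Male Myf5Low replicate 2. The log2 fold change was 0.99 (SE 0.244, adjusted p = 0.0577, edgeR), and with the pool as a block 1.02 (SE 0.227, adjusted p = 0.0288, edgeR), where 136 genes passed (1.16%), 84 of them higher (0.716%). In the additive model it was 0.996 (SE 0.242, adjusted p = 0.044, edgeR), where 149 of 11730 genes passed, 96 of them higher. Without 1 library it passed in 3 of 8 fits, with estimates from 0.84 to 1.19. Of the 34 tested markers, 1 was higher in Myf5High in all 4 pools, namely Tek, against 7.51% of all genes, and 9 were lower in all 4 pools, against 8.76%. The 9 were Cldn5, Egfl7, Acta2, Myh11, Rgs5, C1qa, Gpnmb, Ly6a and, by 1 read against 0 in male pool 1, Tyrobp. Among the 34 tested markers, fractions that did not overlap were found for 4, all lower in Myf5High (Acta2, C1qa, Gpnmb and Tyrobp), against 2.22% of all genes. For Tyrobp that rests on the same 1 read, which is under the floor of 3 reads, so its separation is not established.

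**Figure D4:**
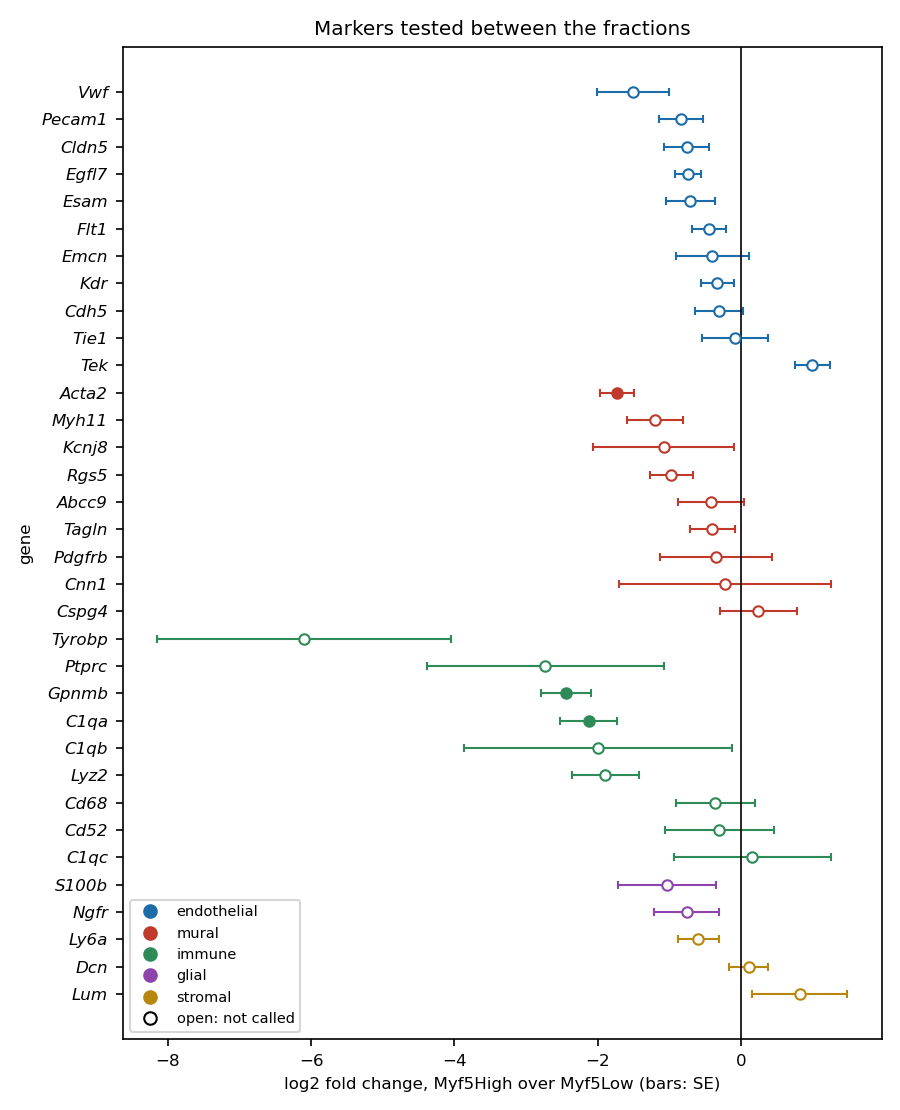
Log2 fold change of Myf5High over Myf5Low (horizontal axis) for the 34 tested markers, with bars for the SE, coloured by cell class. Filled points are Acta2, Gpnmb and C1qa, the markers past an adjusted p of 0.05, and Tek is the endothelial gene to the right of 0.

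In the glial and stromal lists edgeR and DESeq2 each called 0 genes between the fractions, and 0 had an unadjusted p under 0.05 in edgeR. S100b, a calcium-binding protein of glia, was at 7.12 and 4.58 CPM (Female Myf5High), 17.3 and 16.5 (Female Myf5Low), 0 and 30.6 (Male Myf5High) and 16.4 and 26.8 CPM (Male Myf5Low). The Male Myf5High replicates thus held both the lowest and the highest value, and the estimate was -1.03 (SE 0.684, adjusted p = 0.75, edgeR). Ngfr, the neurotrophin receptor p75, was at 2.30 to 33.6 CPM, with an estimate of -0.76 (SE 0.449). These results rest on single Male Myf5High libraries. Without replicate 2 edgeR called S100b between the fractions, in males and between the sexes, and without replicate 1 it called Ngfr between the fractions, and both genes between the sexes. Sox10 stayed at 0 to 4.93 CPM. Of the 12 further glial genes, 8 were tested, 0 were called in edgeR or DESeq2, and 1 had an unadjusted p under 0.05 in edgeR. The members of the stromal list had no common direction. Dcn and Lum, small proteoglycans of collagen matrix, had estimates of 0.11 (SE 0.271) and 0.82 (SE 0.669), and Ly6a, the Sca-1 antigen, of -0.60 (SE 0.288). Ly6a stood at 22.0 and 18.6 CPM (Female Myf5High), 23.6 and 41.6 (Female Myf5Low), 22.1 and 33.9 (Male Myf5High), and 30.2 and 49.2 CPM (Male Myf5Low), higher in Myf5Low in each pool but with the fractions overlapping. Dcn ranged from 50.7 to 111.9 CPM, Lum from 1.41 to 10.8 CPM and Pdgfra from 0 to 4.33 CPM. Of the 16 further stromal genes, 15 were tested, with 9 estimates below 0 and 1 call. Dpt, a matrix protein of fibroblasts, was called higher in Myf5High (log2 fold change 1.05, SE 0.176, adjusted p = 0.00327, edgeR), at 328.9 to 603.7 CPM against 161.3 to 243 CPM. Per kilobase its mean was 189.8 CPM, against 219.6 for Pax7, 25.03 for Ly6a and 0.171 for Pdgfra. The further stromal genes summed to 1457 CPM in Myf5High and 1044 CPM in Myf5Low, of which Dpt made up 444.5 and 209.8 CPM. The part of fibroblast RNA in the Dpt difference was not tested.

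**Figure D5:**
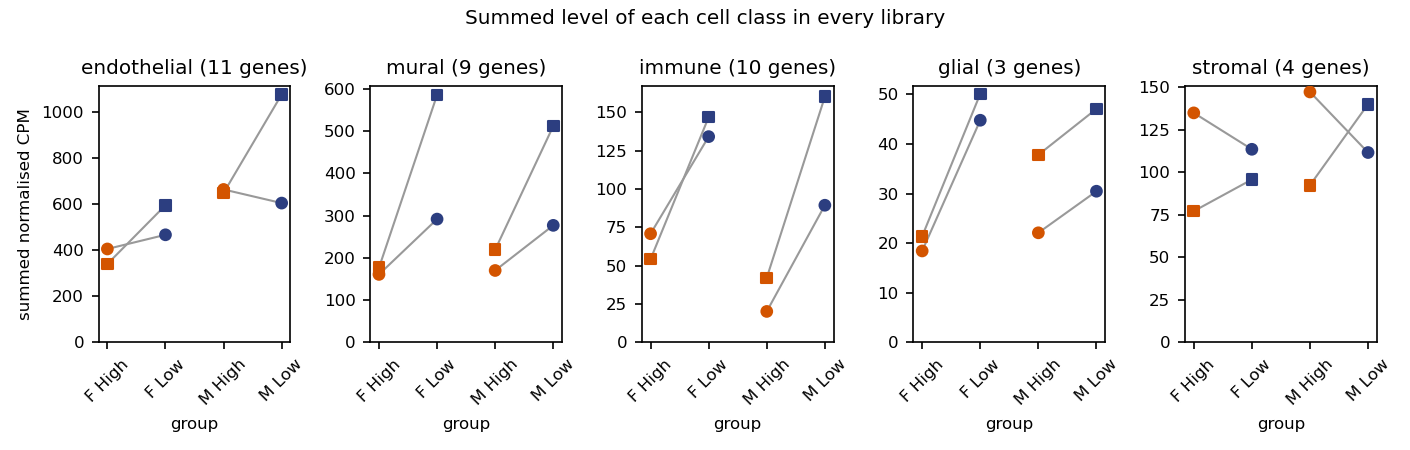
Summed level of each cell class in normalised CPM (vertical axes, from 0, one scale per panel) in the 4 groups, with circles for replicate 1, squares for replicate 2 and lines joining libraries of the same pool number. Mural and immune sums are higher in every Myf5Low library than in every Myf5High library, and the endothelial sum of 1078 CPM in Male Myf5Low replicate 2 is above all others.

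Summed over each class, the ratio of Myf5High to Myf5Low means was 0.353 for immune, 0.436 for mural, 0.578 for glial, 0.750 for endothelial and 0.980 for stromal genes. For the further lists of the same classes it was 1.03 (immune), 0.856 (mural), 0.983 (glial), 0.809 (endothelial) and 1.40 (stromal). These sums weigh the highest genes most. In the mural list Notch3 was at 252.3 CPM in Myf5High against 165.6 CPM in Myf5Low, and Mylk at 110.3 against 260.5 CPM. Egr2 of the glial list was at 73.4 against 50.7 CPM, and Prox1 of the endothelial list at 343.6 against 340.8 CPM. Estimates were below 0 for 8 of 10 tested mural, 6 of 8 glial and 12 of 14 endothelial further genes. They were below 0 for 6 of 11 immune and 9 of 15 stromal genes, against 6087 of 11730 over all genes. The further immune ratio rests on Female Myf5High replicate 1: it was 0.453 without that library and 0.697 without S100a8 and S100a9. With each library left out in turn, the other further ratios ran from 0.80 to 1.01 (mural), 0.895 to 1.10 (glial), 0.741 to 0.884 (endothelial) and 1.18 to 1.499 (stromal). The highest mural and glial ratios were those without Male Myf5Low replicate 2, and the lowest stromal ratio that without Male Myf5High replicate 1. These alternatives were added after seeing the data. The endothelial sums were 515.4 ± 166.1 and 687.1 ± 268.3 CPM (SD, n = 4) and overlapped. Male Myf5Low replicate 2 was the library with the highest level for 7 of the 11 endothelial genes (63.6%) and for 13 of the 37 markers (35.1%), against 10.5% of all genes tested. Without that library the log2 ratio of the endothelial sums was -0.11 instead of -0.42. The summed level of 5 hemoglobin and heme genes of red cells was 2788 CPM in that library and 2323 CPM in Male Myf5High replicate 2, the other library with that pool number, against 868.1 to 1301 CPM in the other 6. The endothelial sum was 1078 CPM in the first of them and 649.7 CPM in the second, where Male Myf5High replicate 1 had 665 CPM. The part of blood and vessel RNA in these values was not tested.

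Between the sexes, Egfl7 was lower and Gpnmb higher in females, and these were the markers that passed in edgeR. DESeq2 called Kdr as well, among 371 genes (3.16%). Over all genes 194 passed (1.65%), 108 lower (0.921%) and 86 higher (0.733%) in females. If libraries with the same pool number share mice, this comparison rests on 2 pools per sex, with both fractions of each. For Egfl7 the log2 fold change of female over male was -1.06 (SE 0.185, adjusted p = 0.00493, edgeR), and every female library was below every male library. With the fractions of each pool summed it was -0.99 (SE 0.189, adjusted p = 0.0196, edgeR). Egfl7 shares 264 exon bases with Gm20532 on the same strand, so reads on those bases may have been set aside as ambiguous. For Gpnmb the log2 fold change was 1.49 (SE 0.345, adjusted p = 0.0336, edgeR) but 0.61 (SE 0.34, adjusted p = 0.461, edgeR) with the pools summed, and it passed 3 times when each of the 8 libraries was dropped in turn.

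Most other endothelial genes had estimates in the direction of Egfl7 without passing in the edgeR model of all 8 libraries. Of the 11, 10 were below 0 in females (median -0.65), among them Kdr at -0.79 (SE 0.229, adjusted p = 0.10 in edgeR and 0.0497 in DESeq2), Cdh5 at -0.97 (SE 0.336, adjusted p = 0.181, edgeR), Cldn5 at -0.90 (SE 0.311, adjusted p = 0.18, edgeR) and Flt1 at -0.65 (SE 0.237, adjusted p = 0.204, edgeR). In other edgeR fits Kdr passed with no filter (adjusted p = 0.0216) and without Male Myf5Low replicate 1 (-0.997, 0.032), and Cldn5 without Male Myf5High replicate 1 (-1.11, 0.0363). Without Male Myf5Low replicate 2 the Kdr estimate was -0.50 and that of Flt1 -0.42. Kdr ran from 48.1 to 68.7 CPM in females and from 74.6 to 146.7 CPM in males, and Cdh5 from 6.62 to 16.8 and from 18.1 to 29.1 CPM. Libraries of the sexes did not overlap for Cdh5, Kdr and Egfl7, 3 of 34 markers, against 3.5% of all genes for this direction. Summed over the class, female libraries held 452.8 ± 108.9 CPM, against 749.6 ± 220.5 CPM for males (SD, n = 4). Without Male Myf5Low replicate 2, left out after seeing the data, the male mean was 640.1 ± 30.7 CPM (SD, n = 3). Estimates of the other lists went both ways. In females the mural list had 5 estimates above 0 and 4 below, and the immune list 6 and 3. The glial list had 1 and 1, and the stromal list 0 and 3. Of 12 genes of muscle stem cells 10 were above 0, and of 12 of myogenic commitment 9 were below. In the further lists 6 of 11 immune, 7 of 8 glial and 11 of 15 stromal estimates were below 0. All 5 red cell genes were below 0 in females (median -0.61), 2 of them at an unadjusted p under 0.05 (edgeR), and they summed to 1154 ± 150.2 CPM for females, against 1760 ± 941.1 CPM over the male libraries (SD, n = 4). The male sums were 2323 and 2788 CPM in the replicate 2 libraries. In the male replicate 1 libraries they were 1062 and 868.1 CPM, below the female mean. Of the 10 tested further mural genes 8 were below 0, 5 of them at an unadjusted p under 0.05, and 0 were called (edgeR). Over all 11730 genes, 6018 estimates were below 0. At an unadjusted p under 0.05, the genes lower in females were 803 of the 11730, and those higher were 827 (edgeR). The part of these classes in the endothelial difference was not tested. Of the 16 further endothelial genes listed, 14 were tested, 11 had estimates below 0 in females and 2 were called, both lower. Ptprb, a phosphatase that acts on Tek, was at -1.38 on the log2 scale (SE 0.225, adjusted p = 0.00243, edgeR), and Eng, a coreceptor of TGF-beta, at -1.02 (SE 0.241, adjusted p = 0.0381, edgeR). With the pools summed, Ptprb kept an adjusted p of 0.00943 and Eng had 0.0603 (edgeR). Eng passed in 2 of 8 fits with 1 library dropped.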

How the data were processed

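RNA of 8 sorted libraries, each from 4 pooled mice, was sequenced as single reads. Extraction used the RNAdvance Tissue Kit, per the labels' protocols. The deposited values are raw read counts per gene, made by the authors with HTSeq 2.16.2 on GRCm38, per the submitters' processing notes. The aligner, annotation release and strand setting are not given in the sources used here. Rows that name no gene (unassigned reads 42.0% to 45.3% of all, ambiguous 0.248% to 0.296%) stayed out of library sizes and tests. Symbols and exon lengths came from GENCODE M21 (27518 of 27554 genes matched), and promoters from RefSeq GRCm38.p6.

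Counts were filtered (at least 10 counts, 15 in total), scaled by TMM and tested with edgeR 4.0.16 (R 4.3.3), in 1 quasi-likelihood model of the 4 groups over all 8 libraries. Benjamini-Hochberg adjustment ran over 11730 genes, with a threshold of 0.05. The method was tested on simulated data. The alternatives were DESeq2 1.42.0, RLE scaling, no or a stricter filter (mean of 50), removal of Gm42418 and mitochondrial genes, the pool as a block, an additive model, each sex alone, pools summed and each library left out. Values in every library are given for members called in any comparison, with or without the pool block, and for the highest member per length of each class, and other members by range. Lyz2, Tyrobp and Csf1r were added after their values were seen. Of the other lists, genes called between fractions or sexes may be named, at most 4 per list. Mcam, Mrc1, Notch3, Egr2 and Prox1 were not called and were named after their values were seen. The members and lists were chosen with earlier results of these data known, so they support nothing on their own. Pool numbers were taken from the labels' pool names, which do not state that fractions of a number share mice. Deviations of same-numbered libraries correlated at 0.0275 in females and 0.000373 in males, over genes. The labels say no more of how replicates were separated than that they were pools. The column names end in a number with K, or with Kc in both male replicate 2 libraries, without a stated meaning. Between fractions, p-values measure the spread between these pools. Between sexes, the model of all 8 libraries took both fractions of a pool number as separate libraries. If those share mice, its p-values do not measure the spread between pools.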

Additional observations from a re-analysis of the deposited data

Results flagged for a closer look

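In 64 groups of 4 libraries, over 16 genes, 9 held 1 library whose distance from the nearest other exceeded Dixon's limit for that group. The 16 are the markers with an unadjusted p under 0.05 between fractions or sexes (edgeR). They were thus chosen for differences between these libraries, and each library counts in a fraction and a sex. The share of about 1 in 20 that chance gives for a single group is therefore no expectation for the 9. In each of the 9 the library was the highest of its group, and 3 of them were in Male Myf5Low replicate 2 and 3 in Female Myf5Low replicate 2.

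Male Myf5Low replicate 2 stood apart for Rgs5 among male libraries (193.3 CPM, next 83.5), for Tyrobp among male libraries (4.06 CPM, next 0.224) and for Cldn5 among Myf5Low libraries (51.6 CPM, next 28.02). Female Myf5Low replicate 2 stood apart for Acta2 among Myf5Low libraries (335.2 CPM, next 153.3), and for Pecam1 (108.9 CPM, next 40.7) and Rgs5 (133.8 CPM, next 54.1) among female libraries. In the Myf5High libraries, Myh11 was highest in Male Myf5High replicate 2 (50.6 CPM, next 22.1), Vwf in Female Myf5High replicate 2 (9.42 CPM, next 3.12) and Ptprc in Female Myf5High replicate 1 (6.14 CPM, with 0 in the others). The causes were not tested.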

How the results depend on the processing

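In the fits with 1 library left out, Acta2, C1qa and Gpnmb (between fractions) and Egfl7 (between sexes) passed in 8 of 8. RLE scaling and removal of Gm42418 and mitochondrial genes left the same markers called in these comparisons. Over the single-gene results, 405 kept their side of the threshold, 39 gained it, 29 lost it and 0 changed direction. Of the class sums, the stromal log2 ratio changed sign, from -0.029 to 0.116 without Female Myf5High replicate 2, to 0.0559 without Male Myf5High replicate 2 and to 0.0786 without Male Myf5Low replicate 2. The further immune ratio fell below 1, from 1.03 to 0.697 without S100a8 and S100a9 and to 0.453 without Female Myf5High replicate 1, and it ran up to 1.36 with other libraries left out (0.901 without Female Myf5Low replicate 2, 0.876 without Male Myf5Low replicate 1). The further mural ratio of 0.856 ran from 0.80 to 1.01, above 1 without Male Myf5Low replicate 2 alone, and the further glial ratio of 0.983 ran from 0.895 to 1.10, above 1 in 4 of 8 cases (1.03, 1.03, 1.06 and 1.10). These alternatives were added after seeing the data.

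Counts of genes called, and of markers among them, moved more. Between fractions they were 291 and 9 with no filter and 234 and 6 in DESeq2. In females they were 167 and 3 with no filter, 111 and 2 in DESeq2, and 77 genes from the female libraries alone. In males they were 111 and 6 with no filter, 80 and 4 in DESeq2, and 2 and 0 from the male libraries alone, and 2 markers passed with the replicate block. Between sexes they were 477 and 4 with no filter, 371 genes in DESeq2, and 1 marker with pools summed. The interaction gave 14 genes with no filter and 2 in DESeq2, with 0 markers. The pool block gave 136, 33 and 26 genes between fractions, in females and in males. It changed no other marker call than those of Tek and of Acta2 in males. The additive model gave 149 genes and 4 markers between fractions, with Tek added to Acta2, C1qa and Gpnmb.

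Leaving out 1 library gave 82 to 243 genes and 3 to 7 markers between fractions, 9 to 117 and 0 to 1 in females, 8 to 74 and 1 to 3 in males, 82 to 558 and 1 to 5 between sexes, and 0 to 8 and 0 for the interaction. The extremes came without Female Myf5Low replicate 2 (82 between fractions and between sexes, 9 in females), Male Myf5Low replicate 1 (8 in males), Male Myf5High replicate 1 (117 in females, 558 between sexes) and Male Myf5High replicate 2 (243, 74 and 8). Log2 ratios of class sums ran from -0.561 to -0.111 (endothelial), -1.35 to -0.987 (mural), -1.77 to -1.25 (immune), -1.06 to -0.67 (glial) and -0.183 to 0.116 (stromal). The causes were not tested. A group of 2 reduced to 1 library was assumed to vary like the others. At 3140361 to 4238427 reads, markers near 3 reads could not be compared.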

Other observations

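S100a8 and S100a9, calcium-binding proteins of neutrophils from the further immune list, were high in both fractions of 1 female pool. S100a8 was at 105.8 CPM in Female Myf5High replicate 1 and 66.5 CPM in Female Myf5Low replicate 1, and at most 1.53 CPM in the other 6 libraries. S100a9 was at 67.6 and 22.2 CPM in the same libraries and at most 1.44 CPM elsewhere. Both were called higher in females (edgeR), but not without Female Myf5Low replicate 1, where the log2 fold changes were 2.62 and 2.57 (adjusted p = 1 for both), nor without Female Myf5High replicate 1 (adjusted p = 0.0837 and 0.29). Ptprc was also highest in Female Myf5High replicate 1, at 6.14 CPM, but was 2.47 CPM in Female Myf5Low replicate 1. The 4 adipocyte genes listed summed to 0 to 1.97 CPM.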
